A study of Rattus norvegicus with 4 samples.

Results

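The genes described here tie the muscle fibre membrane to the matrix outside it and the cytoskeleton inside it: dystrophin (Dmd), utrophin (Utrn), neuronal nitric oxide synthase (Nos1), the integrin subunits Itga7 and Itgb1, and the caveolins Cav1 and Cav3. All probe sets annotated to these 7 symbols were taken, which gave 14 of the 8740 probe sets in the table once Affymetrix controls were left out. They were read in soleus muscle of female rats, with 2 arrays of caged rats that stood and walked as usual (control) and 2 arrays of rats whose hindlimbs bore no load for 10 h a day during 11 days (unloaded). Each array carried pooled RNA of 4 to 5 rats. Replicates are thus pools, a spread is a spread between pools, and strain and age are given by no source used here. Soleus is a postural muscle made largely of slow fibres, and the fibre genes were bright on all 4 arrays, with the summed signal of 7 measured fibre markers between 43080 and 43260 units in control pools and between 39835 and 44361 in unloaded pools.

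Dystrophin is a long rod-shaped protein under the fibre membrane. It binds actin on one side and, through dystroglycan, laminin on the other, and its loss leaves fibres prone to tearing when they contract under load. Utrophin is its close relative, found mainly at the neuromuscular and myotendinous junctions of adult muscle. A second link to laminin runs through the integrin alpha 7 beta 1 pair, and caveolin 3 forms the small membrane pits of muscle fibres while caveolin 1 does so in endothelium, fat and other cells. The comparison asks how the transcripts of these links differ after repeated daily removal of load.

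In the unloaded soleus, the mean dystrophin signal was 1.66-fold lower. Utrophin was 1.31-fold higher on its brighter probe set and 1.78-fold lower on its dim one, which was under the filter and not tested. All 3 caveolin 3 probe sets were 1.16- to 1.21-fold higher, and the 3 of integrin alpha 7 were 1.04- to 1.25-fold lower. Integrin beta 1 was 1.02-fold higher, caveolin 1 was 1.03-fold lower and the means of the brightest Nos1 probe set differed by 1.01-fold. None of the tested differences passed. By limma with Benjamini-Hochberg adjustment over 5257 tested probe sets, 0 of 11 tested probe sets of the 7 genes had an adjusted p under 0.05, against 5.25% of all tested probe sets. The remaining 3 probe sets, 1 of Utrn and 2 of Nos1, had a mean signal under the filter of 20.98 units and are given by their values. At an unadjusted p under 0.05 there were 4 of 11 (36.4%), against 20.8% of all tested probe sets. Of these, 2 were higher (background 10.3%) and 2 lower (background 10.5%). Groups did not overlap for 6 of the 11, or 54.5%, close to the 50.8% seen over all tested probe sets, with 4 higher (background 25.5%) and 2 lower (background 25.3%). The median log2 fold change of the 11 was 0.03, beside 0.00 over all tested probe sets, and the median size regardless of direction was 0.20 beside 0.17.

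Log2 fold changes are unloaded minus control on log2(signal + 9), a scale that understates the change of dim probe sets, and are given with their standard error (SE) and the 95% interval of the limma fit. Signals are MAS5 units, the summary that Affymetrix software makes from the probes of a set, and means are ± SD with n = 2 pools per group. Signals of different probe sets depend on their probes and were not ranked against each other. Because each pool is whole muscle, fewer cells of a type and less RNA per cell cannot be told apart.

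**Figure D1:**
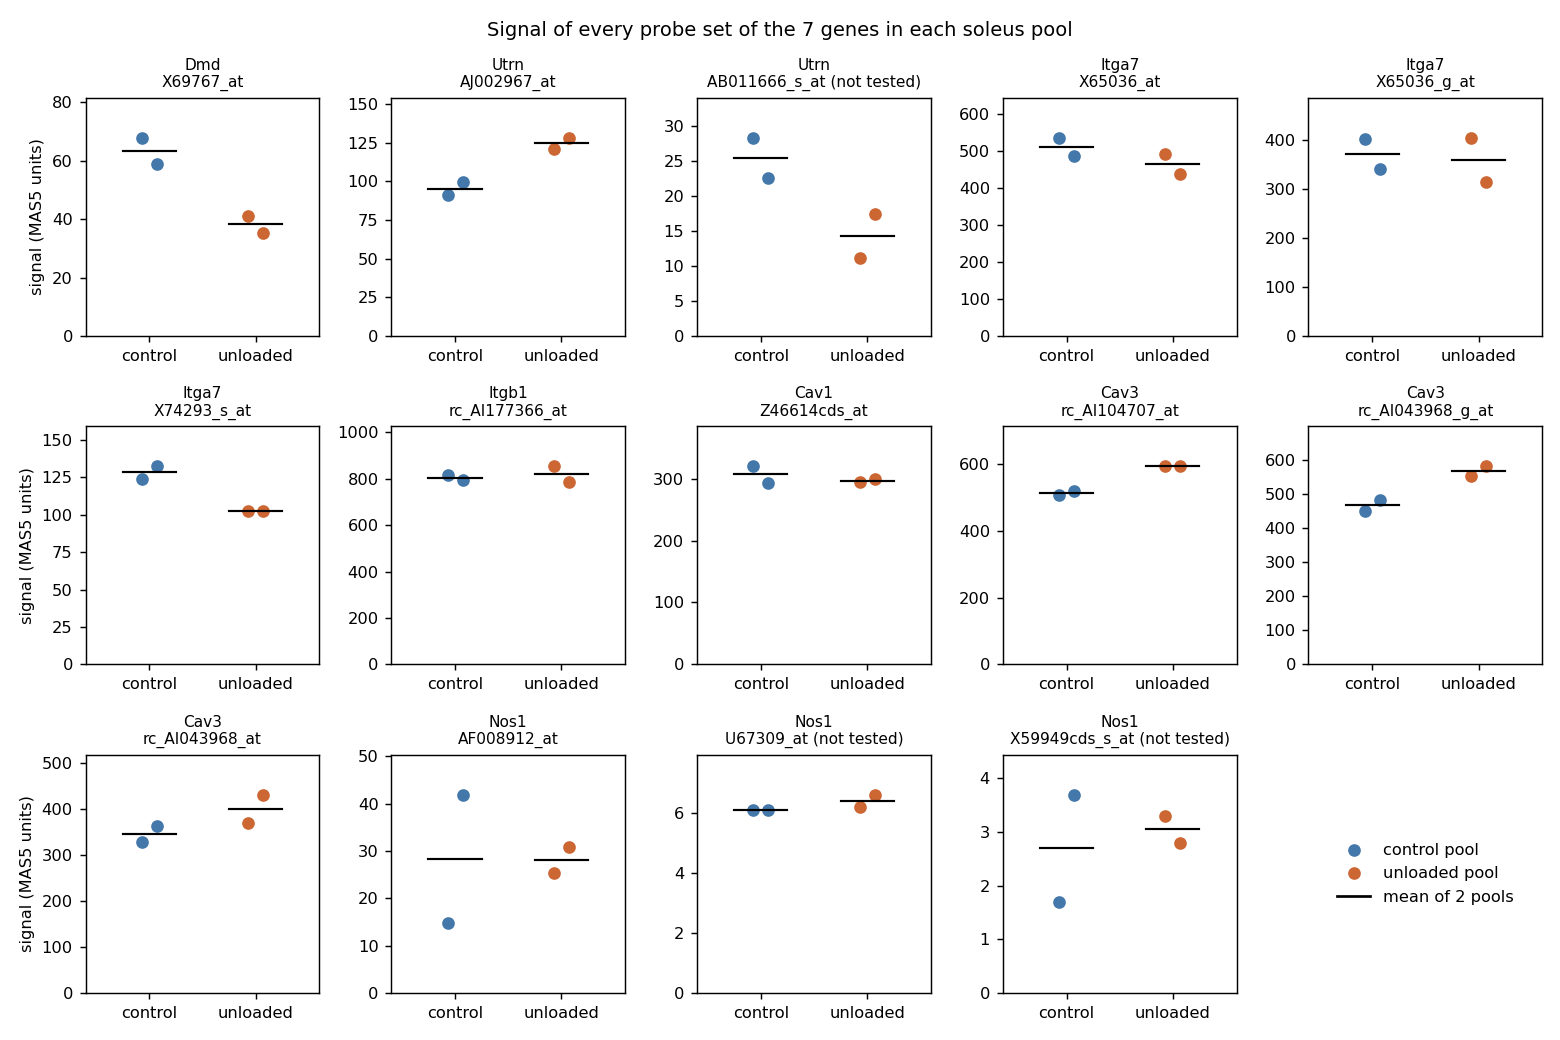
Signal of the 14 probe sets (MAS5 units, linear axes from 0) in control and unloaded pools, with points for pools and a line for the mean of 2 pools. Dmd and the dim Utrn probe set were lower in both unloaded pools, all 3 Cav3 probe sets were higher, and the control pools of Nos1 AF008912_at lay far apart.

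Dystrophin was read by a single probe set, X69767_at. Its signal was 67.9 and 58.9 in the control pools and 41.1 and 35.4 in the unloaded pools. Both unloaded pools lay below both control pools, and the gap between the groups was wider than the gap within either. Group means were 63.4 ± 6.36 and 38.25 ± 4.03, a log2 fold change of -0.62 (SE 0.16, interval -0.997 to -0.23, adjusted p = 0.0781 by limma). That p was the smallest of the 11 and ranked 404 among the 5257 probe sets. At a threshold of 0.10, which 8.71% of all tested probe sets met, dystrophin was the member that passed. With each pool left out the change stayed between -0.71 and -0.53. Dystrophin has several promoters that make shorter products, and which of them this probe set reads was not tested.

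Utrophin gave opposite directions on its probe sets. On AJ002967_at the control pools read 91.0 and 99.4 and the unloaded pools 120.9 and 128.2, so both unloaded pools were above both controls. The log2 fold change was 0.36 (SE 0.13, interval 0.06 to 0.65, unadjusted p = 0.0231, adjusted p = 0.167 by limma). The dimmer AB011666_s_at read 28.3 and 22.5 in controls and 11.1 and 17.4 in unloaded pools, the reverse order with no overlap. Its mean signal was under the filter. With no filter it gave a log2 fold change of -0.57 (SE 0.23, interval -1.14 to -0.0048, adjusted p = 0.344 by limma). So dim a signal is damped by the added 9 units. The direction for utrophin therefore rests on which probe set is read.

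Nos1 makes nitric oxide and is held at the fibre membrane by the dystrophin complex through syntrophin. On its brightest probe set, AF008912_at, the control pools lay furthest apart on the log2 scale among the tested probe sets of these genes, at 14.7 and 41.9, and the unloaded pools fell between them at 25.3 and 30.8. Group means were 28.3 ± 19.2 and 28.05 ± 3.89. The log2 fold change of 0.09 (SE 0.34, adjusted p = 0.924 by limma) had the widest interval of the 11, -0.70 to 0.87, which covers folds from 0.618 to 1.83. It was -0.46 with control pool 1 left out, 0.64 with control pool 2 left out and -0.02 with unloaded pool 2 left out, so its direction changed with the pools kept. The other probe sets were near the bottom of the signal range, U67309_at at 6.1 in both control pools against 6.2 and 6.6, and X59949cds_s_at at 1.7 and 3.7 against 3.3 and 2.8. The interval of AF008912_at includes a change as large as the one measured for dystrophin, in either direction. These arrays therefore neither show nor exclude such a difference in Nos1.

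Integrin alpha 7, the laminin-binding subunit of adult muscle, was read by 3 probe sets, of which X65036_at and X65036_g_at are named for the same source sequence and are not independent. On X65036_at the signal was 535.2 and 486.5 in controls and 491.0 and 438.1 in unloaded pools, with overlap between the groups. X65036_g_at gave 402.1 and 341.1 against 404.5 and 313.1, again overlapping. On X74293_s_at the controls read 124.2 and 132.5 and the unloaded pools 102.5 and 102.7, both below both controls. The log2 fold changes were -0.14 (SE 0.11, adjusted p = 0.539), -0.06 (SE 0.15, adjusted p = 0.881) and -0.30 (SE 0.12, adjusted p = 0.222) by limma, in that order. The last had an unadjusted p of 0.0415 and an interval of -0.58 to -0.01. The mean of the 3 probe sets gave -0.16 (adjusted p = 0.454).

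Integrin beta 1, the common partner of alpha 7 and of many other alpha subunits, was read by rc_AI177366_at, at 817.4 and 793.5 in controls and 854.7 and 787.6 in unloaded pools, with the controls lying between the unloaded values. The log2 fold change was 0.03 (SE 0.09, adjusted p = 0.916 by limma). Its interval, -0.19 to 0.24, corresponds to folds of 0.877 to 1.18, so this fit leaves room for changes of that size and not for a change as large as the one measured for dystrophin.

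Caveolin 3 is the caveolin of muscle fibres. On rc_AI104707_at the controls read 507.0 and 518.1 and both unloaded pools 593.0. On rc_AI043968_g_at they read 451.4 and 484.7 against 553.8 and 583.1, and on rc_AI043968_at 328.9 and 362.9 against 369.2 and 431.8. In each case both unloaded pools were above both controls, though on the last by a narrow margin. The last 2 share a source sequence, so the 3 are not independent readings, and all come from the same 4 RNA pools. The log2 fold changes were 0.21 (SE 0.09, interval -0.01 to 0.42, adjusted p = 0.252), 0.28 (SE 0.10, interval 0.05 to 0.50, adjusted p = 0.166) and 0.20 (SE 0.12, interval -0.07 to 0.47, adjusted p = 0.370) by limma. With single pools left out they ranged from 0.09 to 0.33 across the 3 probe sets.

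Caveolin 1, on Z46614cds_at, read 320.2 and 293.4 in controls and 294.2 and 299.6 in unloaded pools, and both unloaded values lay between the controls. The log2 fold change was -0.04 (SE 0.10, interval -0.29 to 0.20, adjusted p = 0.864 by limma). Markers of cell types rich in caveolin 1 were read beside it. Of 5 tested endothelial markers, none passed by limma (0 at an unadjusted p under 0.05) and the median log2 fold change was -0.23. The summed signal of the 6 measured ones was 457.9 to 459.6 in controls and 359.3 to 419.4 in unloaded pools. On the log2 scale Pecam1 was at 0.02 (SE 0.12) and Flt1 at -0.23 (SE 0.13). Kdr gave -0.63 (SE 0.31), Nos3 -0.56 (SE 0.25) and Vwf -0.03 (SE 0.20), so of the tested ones only Pecam1 was not lower. Of 5 tested adipocyte markers, none passed and the median was -0.16. At an unadjusted p under 0.05 there were 2, against 20.8% of all tested probe sets, and they pointed opposite ways, with Cfd at -0.61 (SE 0.19) and Fabp4 at 0.31 (SE 0.11). The summed signals of the 6 measured ones were 1859 to 2115 in controls and 1791 to 2123 in unloaded pools. No measured marker of either list was at 0 on all arrays. The part of these cells in the caveolin 1 and utrophin values was not tested.

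**Figure D2:**
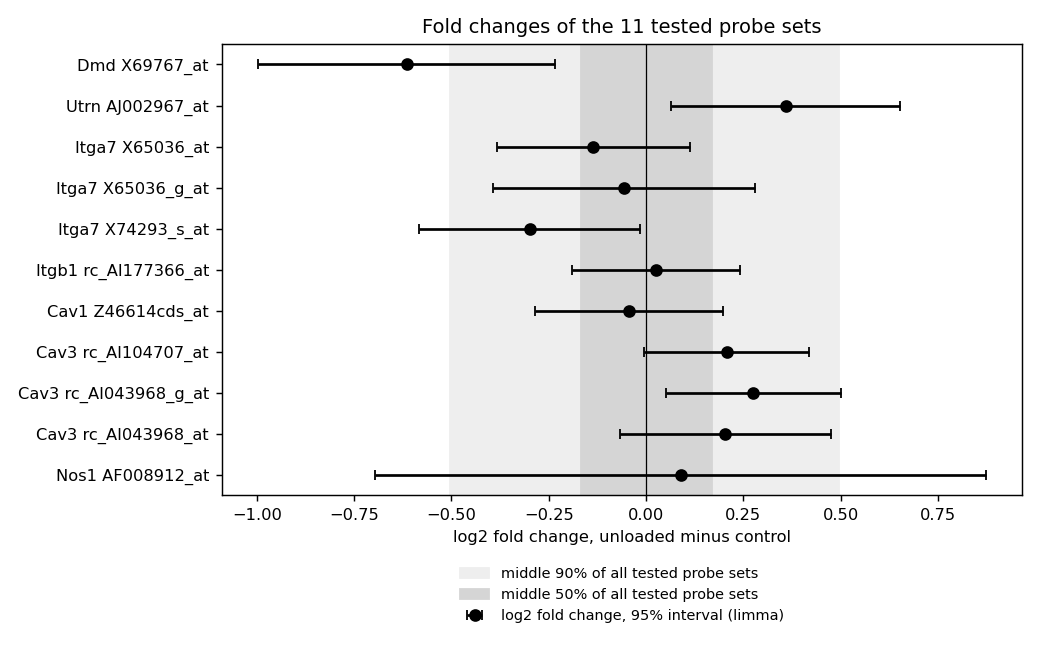
Log2 fold change (unloaded minus control) of the 11 tested probe sets with its 95% interval from limma, over the middle 50% (-0.17 to 0.17) and middle 90% (-0.50 to 0.49) of all 5257 tested probe sets. Dmd at -0.62 is the one point outside the middle 90%, and the intervals of Itgb1 and Cav1 are narrow around 0 while that of Nos1 is wide.

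Related members were also compared within each array, where a scaling factor common to the array cancels except for the added offset. The log2 signal of Dmd minus that of the brighter Utrn probe set was -0.38 and -0.67 in controls and -1.37 and -1.63 in unloaded pools, a difference of -0.97 between the groups. Taken against the dim Utrn probe set, a reading added after the values were seen, it was 1.04 and 1.11 in controls and 1.32 and 0.75 in unloaded pools, a difference of -0.042 with overlap between the groups (exact permutation p = 1.0). The gap between dystrophin and utrophin thus depends on the utrophin probe set. Caveolin 3 minus caveolin 1 was 0.65 and 0.80 in controls and 0.99 and 0.96 in unloaded pools, a difference of 0.25. For Itga7 minus Itgb1 the values were -0.60 and -0.70 against -0.79 and -0.83, a difference of -0.16. On the brightest probe sets the groups did not overlap in these 3 comparisons. Of all single tested probe sets 50.8% did not overlap, and no such share was computed over other pairs, so this says little about these pairs. Dmd minus Nos1 overlapped, at 1.70 and 0.42 in controls and 0.55 and 0.16 in unloaded pools. A two-sided exact permutation test of 2 pools against 2 cannot go below p = 0.333, the value it gave for the first 3, and for Dmd minus Nos1 the exact p was 0.667. These comparisons, made over shared arrays, therefore could not pass any usual threshold, and none was adjusted further.

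**Figure D3:**
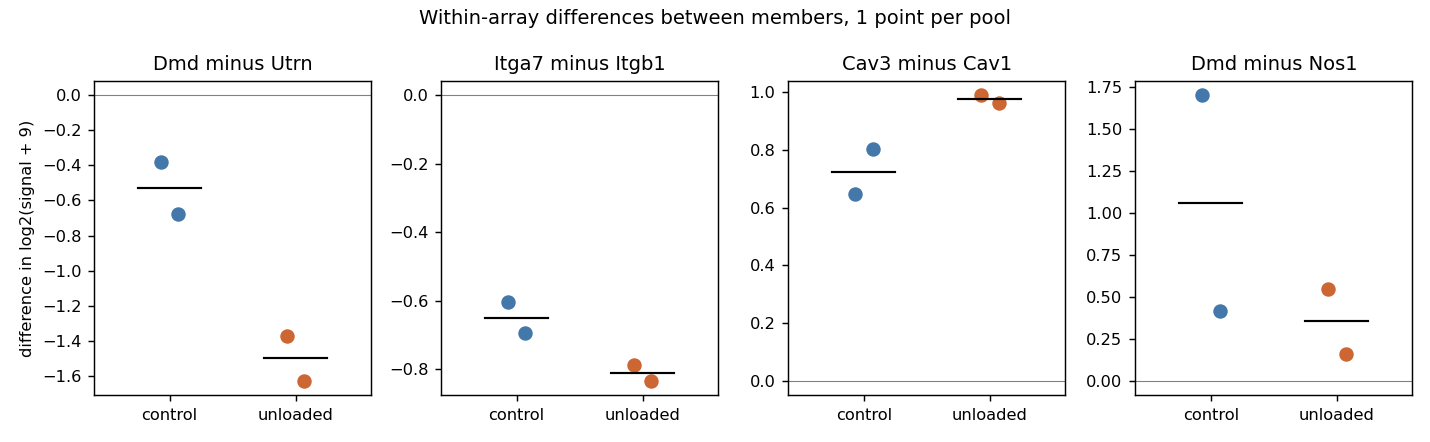
Within-array difference in log2(signal + 9) between 2 members, each on its brightest tested probe set, with 1 point per pool and a line for the mean of 2 pools. Dmd minus Utrn has a mean of -0.53 in controls and -1.50 in unloaded pools on the brighter Utrn probe set, and the groups of Dmd minus Nos1 overlap. Vertical axes differ between panels.

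The wider pathway was read through 6 lists of related genes, each gene counted by its brightest tested probe set. Of 57 tested genes, 1 was higher at an adjusted p under 0.05 by limma, 0 were lower and the rest did not pass. The background was 2.59% higher and 2.66% lower over all tested probe sets. At an unadjusted p under 0.05 there were 8 of 57 (14%), against 20.8% over all tested probe sets. By list these were 2 of 3 in the dystrophin complex list, 1 of 11 matrix ligands, 0 of 6 integrins, 1 of 17 focal adhesion genes, 2 of 9 caveolae partners and 2 of 11 nitric oxide genes. Dystroglycan, the sarcoglycans, the syntrophins and dystrobrevin, the core partners of dystrophin, were not analysed here. The list had 3 tested genes, Plec, Ank3 and Capn3, of which the last is a protease anchored on titin. None passed, and the median log2 fold change was 0.27, against -0.07 with no filter and 0.03 where all tested probe sets of a gene were averaged. Plectin (Plec), which links intermediate filaments to the membrane, read 1379.2 and 1369.1 in controls and 1588.3 and 1742.6 in unloaded pools (0.27, SE 0.09, adjusted p = 0.142). Ankyrin G (Ank3), from a family that anchors membrane proteins to spectrin, gave 0.28 (SE 0.12, adjusted p = 0.236), with its 4 other tested probe sets between -0.27 and 0.15. Capn3, a calpain of muscle, gave -0.19 (SE 0.09, adjusted p = 0.296).

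Among 11 laminin, basement membrane and other matrix ligand genes none passed, and the median was -0.07. Lama2, the laminin chain that dystroglycan and integrin alpha 7 beta 1 bind around muscle fibres, read 60.4 and 77.6 in controls against 59.6 and 50.1 (-0.28, SE 0.17, adjusted p = 0.400). Lamc1, the gamma 1 chain that joins it in the laminin trimer, gave 0.09 (SE 0.10), and Lamb2, a beta chain found mainly at the neuromuscular and myotendinous junctions, gave -0.11 (SE 0.10). Fibronectin (Fn1), a ligand of other integrins, had the smallest p of this list. It read 498.9 and 546.7 in controls and 853.2 and 587.3 in unloaded pools (0.43, SE 0.17, adjusted p = 0.191), so most of that difference lay in 1 unloaded pool. Its 3 other tested probe sets gave -0.15 to 0.04. Vitronectin (Vtn), another integrin ligand, gave 0.22 (SE 0.12, adjusted p = 0.341).

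Of 6 other integrin subunits none passed, with a median of -0.14. Itgav, the alpha V subunit, read 25 and 27.8 in controls against 19.6 and 17.5 (-0.36, SE 0.20, adjusted p = 0.348). Itgb7, a leukocyte subunit, read 51.8 and 53.3 in controls and 46.3 and 40.4 in unloaded pools (-0.24, SE 0.16), and a dimmer probe set gave -0.47 (SE 0.18, adjusted p = 0.196). Itgb4, of hemidesmosomes, was apart between unloaded pools at 19.5 and 40.4, against 21.1 and 13 in controls (0.54, SE 0.30). Itga8 gave -0.23 (SE 0.20). All 6 were dim on these probe sets, between 13 and 64.8 units in every pool.

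The 17 focal adhesion and costamere genes, which connect integrins and the membrane to actin and the Z-disc, had a median of 0.02, and none passed. Ldb3, a Z-disc protein, read 3493.2 and 3422.8 in controls and 2781.0 and 3080.9 in unloaded pools on its brightest probe set (-0.24, SE 0.09, adjusted p = 0.183). Its 2 other probe sets pointed the other way, at 0.34 (SE 0.11) and 0.35 (SE 0.10). Changes of similar size were measured for the tetraspanin Cd81 (0.20, SE 0.10), the integrin-associated protein Cd47 (0.27, SE 0.14) and Csrp3, a LIM protein of the Z-disc (0.23, SE 0.12). The other tested probe set of Cd47, a dim one, gave -0.03 (SE 0.25), and that of Cd81 gave 0.15 (SE 0.10). Desmin (Des), the muscle intermediate filament, read 4149.8 and 4156.8 in controls, between the unloaded values of 4067.1 and 4266.2 (0.00, SE 0.08). Filamin C (Flnc) gave 0.04 (SE 0.09) and alpha-actinin 2 (Actn2) 0.03 (SE 0.09). Focal adhesion kinase (Ptk2), which integrins activate, gave -0.01 (SE 0.16).

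No gene of the 9 caveolae partners passed, and their median was -0.08. Those with the smallest p were lower: Cd36, a fatty acid transporter found in caveolae, at -0.27 (SE 0.10, adjusted p = 0.167), and the insulin receptor Insr at -0.42 (SE 0.17, adjusted p = 0.223). Insr read 84.8 and 65.2 in controls and 48.9 and 58.0 in unloaded pools. A dimmer Cd36 probe set gave -0.02 (SE 0.10). Trpc1, a cation channel that caveolin binds, gave 0.26 (SE 0.16) on its brightest and -0.39 (SE 0.15) on a second probe set. Flot1, a membrane scaffold protein, gave 0.15 (SE 0.12) and the caveolar coat gene Cavin3 -0.08 (SE 0.12).

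In the nitric oxide list 1 of 11 genes was higher (background 2.59%) and the median was 0.00. The gene was Pfkm, the muscle phosphofructokinase of glycolysis, included as a protein that binds neuronal nitric oxide synthase. Since the lists were made with earlier results of these data known, its call is not a separate result about nitric oxide signalling. Pfkm read 1895.7 and 1738.2 in controls and 2687.0 and 2712.5 in unloaded pools (0.57, SE 0.09, adjusted p = 0.0113 by limma). That call was lost with any single pool left out, while the change stayed of similar size. It was 0.63 (adjusted p = 0.0681) and 0.51 (0.109) without control pools 1 and 2, and 0.58 (0.0855) and 0.56 (0.0797) without unloaded pools 1 and 2. The call was kept with quantile normalization (0.00915) and median scaling (0.00984) and with the pool number as a block (0.0281). It was also lost with no filter (0.0547), with no mean-variance trend (0.0764) and with 1 value per gene (0.325 on the log2 scale, adjusted p = 0.0553), since its other probe set gave 0.08 (SE 0.09). Dlg4, a scaffold whose PDZ domain binds the same synthase, read 46.2 and 60.9 against 86.7 and 90.5 (0.65, SE 0.16, adjusted p = 0.0621).

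Of the other synthases, endothelial Nos3 read 75.6 and 71.1 in controls and 33.4 and 64.7 in unloaded pools (-0.56, SE 0.25, adjusted p = 0.256), with its 4 other probe sets between -0.45 and 0.02. Inducible Nos2 gave -0.22 (SE 0.13) on its brightest probe set. On another, 1 unloaded pool read 85.2 where the other 3 pools read 16.5 to 28.4, which gave 1.21 (SE 0.38, adjusted p = 0.127). The subunits of the nitric oxide receptor soluble guanylate cyclase, Gucy1a1 (0.35, SE 0.17) and Gucy1b1 (0.30, SE 0.16), were higher in both unloaded pools without passing, at adjusted p of 0.287 and 0.337.

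**Figure D4:**
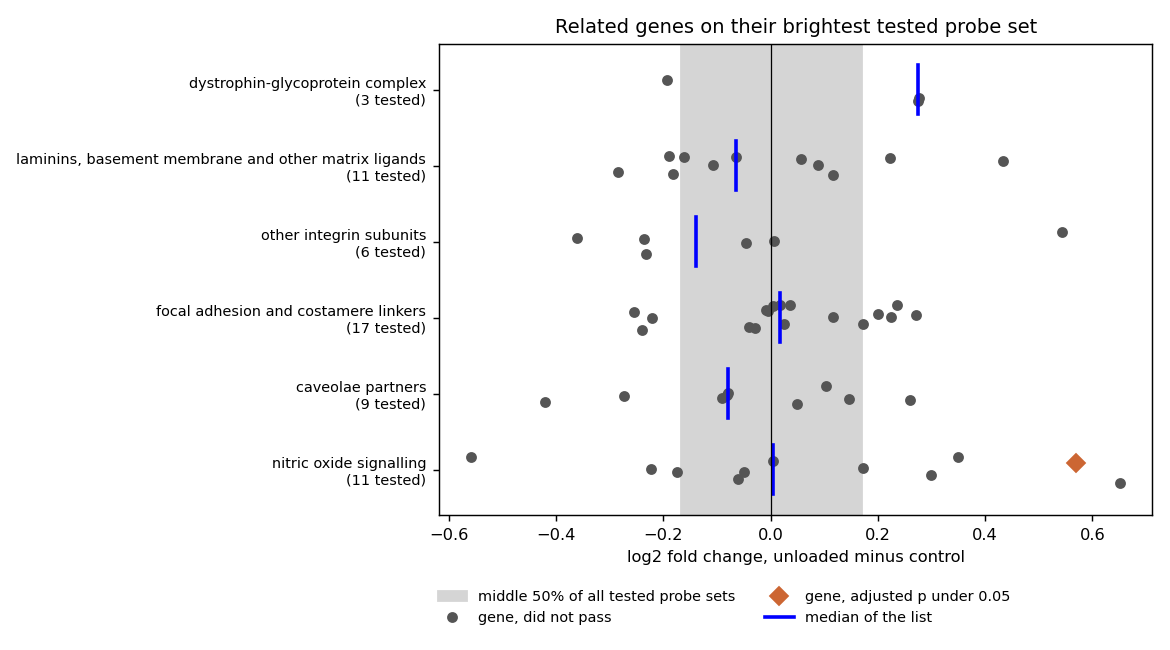
Log2 fold change (unloaded minus control) of each related gene on its brightest tested probe set, by list, with a bar at the list median and grey for the middle 50% of all tested probe sets. Pfkm at 0.57 is the one gene past the threshold, and the list medians lie between -0.14 and 0.27, the latter over 3 genes.

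To describe the dystrophin pattern further, the tested probe sets nearest to it were listed, by the Euclidean distance between log2 signals centred on their mean over the 4 pools. The nearest were the bradykinin receptor Bdkrb1 (distance 0.05), the acetylcholine receptor subunit Chrna7 (0.06), the mitochondrial ribosomal protein Mrps6 (0.07), the aminotransferase Agxt (0.08) and the cell survival gene Bcl2l1 (0.09). Their log2 fold changes ran from -0.67 to -0.56, near that of dystrophin because they were chosen for likeness to it. Bdkrb1 (adjusted p = 0.0398) and Mrps6 (adjusted p = 0.0384) passed by limma, where 2.66% of all tested probe sets passed as lower. Since the choice used these same values, their changes are not a separate result. Bdkrb1 read 115.4 and 102.2 in controls and 69.1 and 62.4 in unloaded pools, and Mrps6 read 147.0 and 128.3 against 90.1 and 75.9. With 4 values per probe set such likeness is weak.

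**Figure D5:**
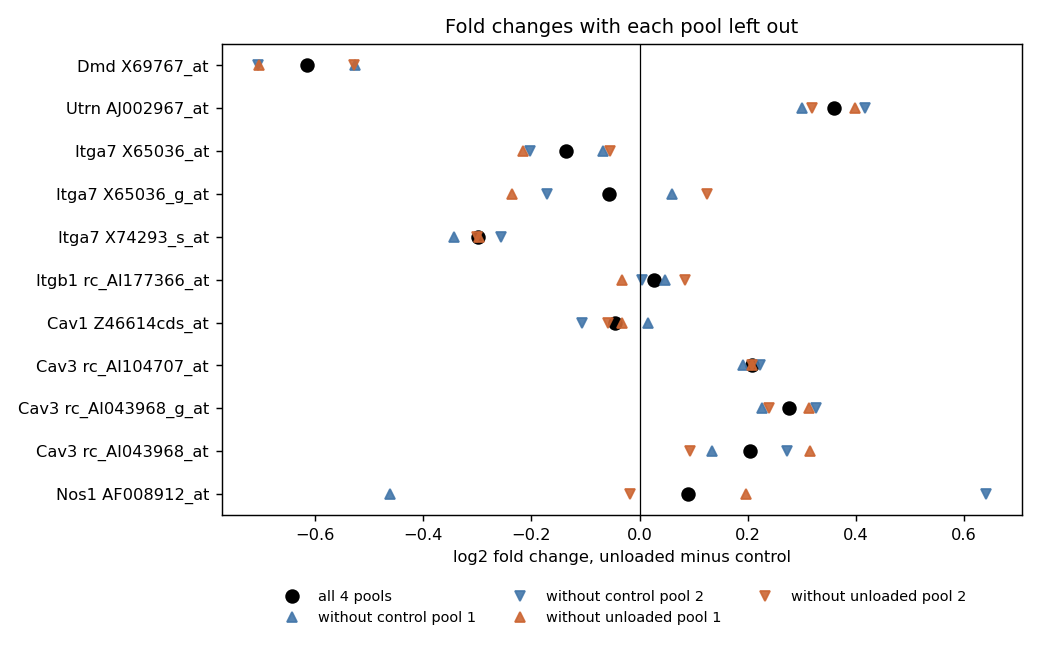
Log2 fold change of the 11 tested probe sets with all 4 pools (black) and with each pool left out (triangles). Dmd, Utrn, Cav3 and 2 of 3 Itga7 probe sets keep their side of 0, while Nos1 ranges from -0.46 to 0.64 and Itgb1, Cav1 and Itga7 X65036_g_at cross 0.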

How the data were processed

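The authors deposited intensity values, 1 for each probe set on each array, made with MAS5 per the submitters' processing notes (version and settings not stated there). Intensities are linear and scaled per array, with medians of 34.0 to 35.7 over 8740 probe sets after 59 Affymetrix controls were left out. Probe sets were named through the platform annotation, with symbols updated by gene ID to RefSeq (GRCr8), which matched 6985 of 7006 single-symbol probe sets. No probe set was annotated to a member together with other genes.

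Signals were taken as log2(signal + 9), 9 being the 25th percentile, and probe sets with a mean at or above the 40th percentile were tested with limma 3.58.1 in R 4.3.3 (mean-variance trend, 2 residual and 5.80 prior degrees of freedom, Benjamini-Hochberg over all 5257). The labels do not say that pool numbers pair the arrays, and the correlation of same-numbered deviations was -0.04. Data for these 5257 probe sets were simulated with normal noise. Its variances were drawn from the distribution of variances that this limma fit estimated over all tested probe sets. Changes were added on the log2(signal + 9) scale, and the same test was run. There 29.8% of changes of 1.5-fold were recovered, as were 81.5% at 2-fold and 99.5% at 4-fold. Of the calls 5.16% were false. A share near the 0.05 that the adjustment sets was built in, since the noise followed the model of the test. These shares hold under the assumptions of the fit and were not measured on real changes. Detection calls were not used here, so whether a dim probe set stood above background is not known. The p-values by limma weigh the difference between groups against the spread between pools, with variances partly shared across probe sets. That spread may be technical, and the spread between single rats was not measured.

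Members and lists were chosen with earlier results of these data known. Named genes were all members, up to 4 genes per list with the smallest p and every gene that passed, some of the brightest markers, and the 5 patterns nearest to the member with the smallest p. Des, Flnc, Actn2, Ptk2, Lamc1, Cavin3, Nos2, Gucy1b1, Kdr, Vwf, Cfd, Fabp4, Ncam1, Mbp and Pdgfrb were named after their values were seen. Figures were drawn with matplotlib 3.10.9.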

Additional observations from a re-analysis of the deposited data

How the results depend on the processing

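No member probe set passed at 0.05 under any of the 13 alternatives to the fit, and at a threshold of 0.10 the number lower was 1 (dystrophin). Dystrophin had a log2 fold change of -0.71 to -0.43 and an adjusted p of 0.0667 to 0.274 over 12 of them; it has no value with a filter at the 60th percentile. With single pools left out, direction reversed for Nos1 AF008912_at (-0.46 to 0.64, with -0.02 without unloaded pool 2), Itga7 X65036_g_at (-0.24 to 0.12, with 0.06 without control pool 1), Itgb1 (-0.0318 to 0.0849) and Cav1 (-0.106 to 0.0165). The other tested probe sets kept their direction, and the differences between paired members kept theirs under the 4 scalings and offsets tried, though Dmd minus Utrn came to -0.042 on the dim Utrn probe set.

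Among the lists, the matrix ligand median turned from -0.07 to 0.06 with a filter at the 60th percentile or without control pool 2, and to 0.04 without unloaded pool 2. With single pools left out, the nitric oxide median ranged from -0.036 (without control pool 2) to 0.12 (without control pool 1), the caveolae median from -0.10 to 0.046, with 0.041 when control pool 1 and 0.046 when unloaded pool 1 was dropped, and the integrin median from -0.18 to -0.078, with -0.088 when unloaded pool 1 and -0.078 when unloaded pool 2 was dropped. The nitric oxide median was 0.17 with 1 value per gene, and the integrin median -0.23 with no filter and -0.083 with the offset at the 50th percentile.

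Over all probe sets, 136 higher and 140 lower became 42 and 48 with no filter, 52 and 61 with no mean-variance trend, 226 and 232 at a threshold of 0.10, and 100 and 88 with 1 value per gene. With the pool number as a replicate block they were 78 and 87, and no member passed. With single pools left out they ranged from 22 to 43 and from 38 to 55, where a lone pool is assumed to vary like the other group. The cause of these shifts was not tested. The number of arrays limits the precision, and a dim probe set such as Nos1 AF008912_at allows wide changes.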

Other observations

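Markers of cells other than fibres were read for the same pools, and none of those tested passed by limma. At an unadjusted p under 0.05 there were 1 of 4 tested Schwann cell and nerve markers, 2 of 3 of blood, 1 of 6 of smooth muscle and pericytes, 1 of 8 of fibroblasts and 0 of 2 of leukocytes, against 20.8% of all tested probe sets. Over 5 measured Schwann cell and nerve markers the summed signal was 935.9 to 943.9 in controls and 845.0 to 858.6 in unloaded pools. Most of each sum was Pmp22, a myelin protein, at -0.14 (SE 0.10, adjusted p = 0.476). Ncam1 gave -0.50 (SE 0.15, adjusted p = 0.118 by limma) and Ngfr -0.06 (SE 0.14). Mbp pointed the other way at 0.18 (SE 0.20). Over 3 blood markers it was 4326 to 4567 against 5107 to 5199, led by the globin gene Hbb (0.21, SE 0.08, adjusted p = 0.219). Of 6 tested smooth muscle and pericyte markers the median log2 fold change was 0.22, with Acta2 at 0.25 (SE 0.11, adjusted p = 0.242). Only Pdgfrb was lower, at -0.23 (SE 0.17). The summed signals were 5161 to 5281 against 5306 to 5605. Most of each sum was desmin (Des), which is a fibre marker too, at 4149.8 and 4156.8 in controls against 4067.1 and 4266.2. These sums therefore read fibres as well. Fibroblast markers overlapped between the groups in summed signal, at 8340 to 9552 and 8938 to 10931, as did leukocyte markers, at 295.4 to 478.7 and 387.6 to 490.3. The brightest fibroblast marker, Dcn, did not overlap, at 2452.2 and 2865.3 in controls and 3798.2 and 3282.7 in unloaded pools. It gave 0.41 (SE 0.11, adjusted p = 0.083 by limma), and the next brightest, Col1a1, gave -0.08 (SE 0.13).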
